A study of Mus musculus with 22 samples.

Results

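The transcripts described here encode 10 neuropeptide precursors, Avp, Oxt, Hcrt, Pmch, Pomc, Agrp, Crh, Gal, Npy and Sst, measured as read counts in mouse whole brain. They were chosen by symbol from a count table of 56748 gene identifiers, and all 10 passed the filter on low counts that left 20026 genes for testing. The libraries came from 22 male C57BL/6J mice at 17.5 months of age, 1 library per mouse. At 10 weeks of age the mice had been injected for 10 days with pyridostigmine bromide at 0.7 mg/kg, an acetylcholinesterase inhibitor, together with permethrin at 200 mg/kg, a pyrethroid insecticide, or with vehicle. This pair of chemicals is used as a model of Gulf War Illness, and the series title concerns neuroimmune priming in such mice and its reversal by cannabidiol. CtrlVeh (n = 3) had neither chemicals nor cannabidiol and received PBS, and CtrlVehLPS (n = 3) was the same with lipopolysaccharide (LPS), a bacterial endotoxin that causes systemic inflammation. GWVeh (n = 4, PBS) and GWVehLPS (n = 4, LPS) were exposed to the chemicals and later given vehicle. GWCBD30 (n = 4, PBS) and GWCBD30LPS (n = 4, LPS) were exposed and later given cannabidiol (CBD), a non-intoxicating cannabinoid, at 30 mg/kg. CBD was injected daily for 28 days and then every 2 days for 2 weeks. LPS was a single intraperitoneal dose of 0.33 mg/kg, and all brains were collected 24 h after the LPS or PBS injection. All mice that received CBD had been exposed.

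Neuropeptides are cut from larger precursor proteins inside dense-core granules and act on G protein-coupled receptors. Vasopressin (Avp) and oxytocin (Oxt) are made by large neurons of the paraventricular and supraoptic hypothalamus and released in the posterior pituitary, and corticotropin-releasing hormone (Crh) starts the stress axis. The hypothalamus also holds the orexin (Hcrt) and melanin-concentrating hormone (Pmch) neurons of its lateral part and the Pomc and Agrp neurons of the arcuate nucleus, which act against each other on feeding. Galanin (Gal) is shared by several hypothalamic and brainstem populations, whereas neuropeptide Y (Npy) and somatostatin (Sst) are abundant in inhibitory interneurons of cortex, hippocampus and striatum.

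Library totals had a range of 17152600 to 31150500 counts, and 3 counts, taken as the limit of detection, corresponded to 0.0975 to 0.176 CPM, the count scaled to the effective library size. Pan-brain markers, among them Snap25, Syt1, Rbfox3, Mbp, Gfap, Aqp4, Cx3cr1 and Csf1r, were present in every library. CtrlVehLPS replicate 1 stood apart, with a cerebellar marker score (mean log2 CPM) of 0.94 against 5.95 to 6.77 in the other libraries. Hypothalamic region markers were scored in the same way from the 10 tested of 14 transcription factor and receptor genes, among them Sim1, Otp and Nkx2-1. Their summed level was 5.67 to 22.05 CPM. Of the 4 that were not tested, Six6 was at 0 in 6 libraries, Nkx2-4 and Hmx2 in 5 each and Rax in 7. In whole-brain RNA, fewer cells of a type and less RNA per cell cannot be told apart.

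Avp and Oxt are neighbours on chromosome 2. The coordinates given for genes are GENCODE M21 on GRCm38. Avp lies at chr2:130580620-130582554 on the minus strand and Oxt at chr2:130576173-130577054 on the plus strand, each with 3 exons. The genes point towards each other, 3565 bases apart, with 0 annotated genes between them. The pair covaried between libraries, and Oxt but not Avp passed the threshold in the LPS comparison, though the 2 were not tested against each other. Their upstream sequences are shown as a description only. A link of these sequences to the levels or to LPS was not tested. Each line gives the 250 bases before the RefSeq transcription start on GRCm38.p6, read in the direction of transcription, for Avp chr2:130582589-130582838 and for Oxt chr2:130575919-130576168. Capitals mark matches, on either strand, to any of 3 motifs. The first is TGACC, the half-site shared by several nuclear receptors. The second is the E-box CACGTG, which several helix-loop-helix factors bind. The third is CATAAA, a variant of the TATA box.
Avp: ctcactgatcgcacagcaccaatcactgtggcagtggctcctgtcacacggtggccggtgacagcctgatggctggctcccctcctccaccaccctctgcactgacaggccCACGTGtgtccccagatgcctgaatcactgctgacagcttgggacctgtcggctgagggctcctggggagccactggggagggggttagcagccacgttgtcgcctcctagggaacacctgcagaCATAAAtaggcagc
Oxt: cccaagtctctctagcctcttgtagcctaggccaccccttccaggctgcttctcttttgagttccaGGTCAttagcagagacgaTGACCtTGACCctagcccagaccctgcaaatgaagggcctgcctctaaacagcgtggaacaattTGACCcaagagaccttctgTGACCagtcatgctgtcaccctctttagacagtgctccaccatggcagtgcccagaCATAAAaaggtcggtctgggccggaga
The Oxt window held 5 matches to TGACC, of which 1 was on the opposite strand, and none of the matches overlapped another. Among 32851 promoter windows of this length, 35.2% held at least 1 TGACC and 1.51% held 3 or more. The Avp window had 0 matches to TGACC and 1 to CACGTG, a motif present in 6.02% of windows. Both windows had 1 match to CATAAA, which 10.8% of windows held. Promoter entries matched 8 of the 10 genes. Of the other matched windows, those of Pomc and Gal had 1 TGACC each and Npy had 1 CATAAA, whereas Hcrt, Pmch and Sst had none of these letters.

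Per kilobase of the principal transcript, Sst was the most abundant of the 10, at 132 CPM per kb on average over the 22 libraries. Npy followed at 47.5 CPM per kb, Avp at 21.9 and Oxt at 12.8. Then came Pmch at 7.97, Hcrt at 7.62, Gal at 3.68, Crh at 3.15, Pomc at 2.01 and Agrp at 1.31 CPM per kb. Sst exceeded Npy, and Npy exceeded Avp, in 22 of 22 libraries, and Avp exceeded Oxt in 21. Hcrt exceeded Gal in 20 libraries, Crh exceeded Pomc in 19 and Oxt exceeded Pmch in 16. The closest neighbours were Pomc over Agrp, in 15 of 22 libraries, Gal over Crh, in 13, and Pmch over Hcrt, in 12. The scarcest transcript, Agrp, was still counted in every library, with 11 to 60 reads. Pomc had 10 to 102 reads per library.

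**Figure D1:**
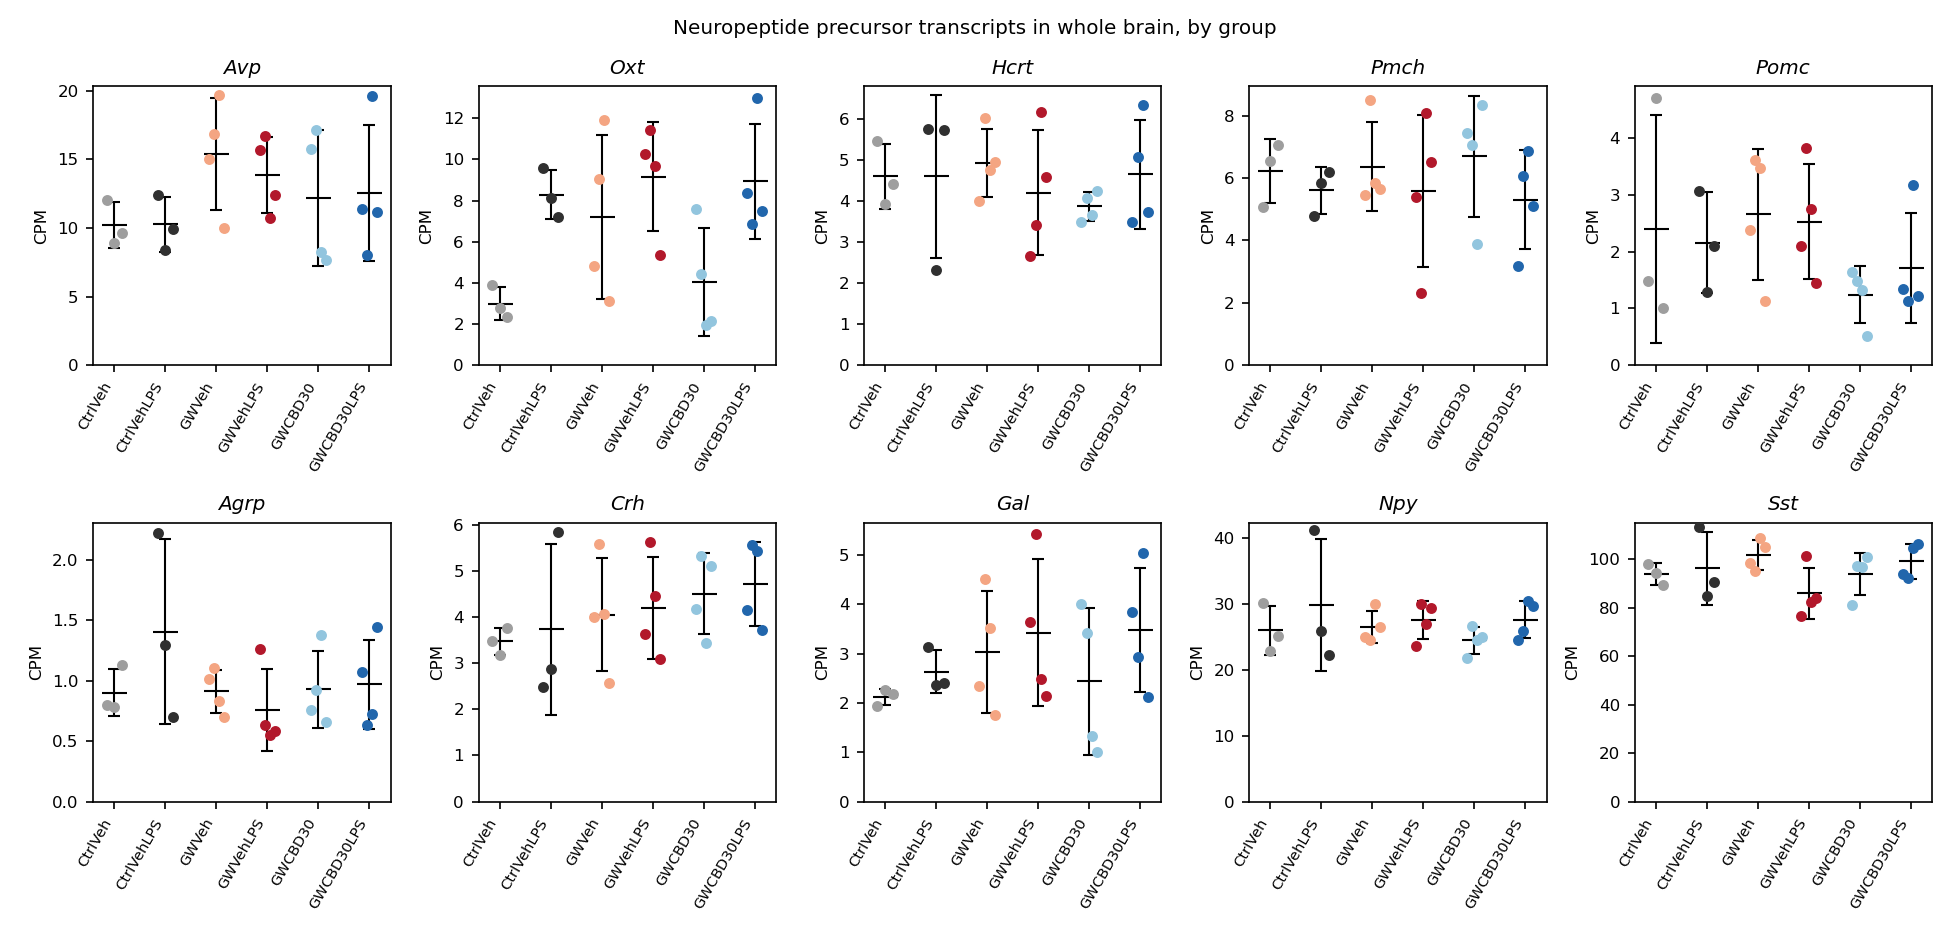
Level of each neuropeptide precursor transcript (vertical axis, CPM on a linear scale starting at 0) in the 6 groups, with 1 point per library and the bar and whiskers giving mean and SD. In the Oxt panel CtrlVeh (2.33 to 3.87 CPM) lies wholly below CtrlVehLPS (7.20 to 9.58 CPM), as it does by less in the Gal panel (1.94 to 2.26 against 2.36 to 3.14 CPM), while Sst and Npy have the narrowest relative spread. Between CtrlVeh and CtrlVehLPS, 17.3% of all genes did not overlap.

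Most of these transcripts varied more between mice of the same group than genes of like abundance did. The within-group SD of log2 CPM was 0.62 for Oxt, against a median of 0.21 for the 500 tested genes nearest to it in abundance, and 99.4% of those genes varied less. For Pomc it was 0.73 against 0.35, for Gal 0.60 against 0.31 and for Avp 0.43 against 0.16. Crh (0.38 against 0.26) and Hcrt (0.41 against 0.26) were closer to the median of genes of their abundance, but 93.4% and 95.6% of those genes varied less. For Pmch and Npy these shares were 98.2% and 94.2%. Agrp did not stand out, with 0.47 against 0.48. Sst had the smallest within-group SD of the 10, at 0.14, though 87.8% of the genes nearest to it in abundance varied less.

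LPS was compared with PBS in each arm and averaged over the 3 arms. Oxt, which encodes oxytocin, was higher 24 h after LPS, by a log2 fold change of 0.997 ± 0.265 (SE) in the average over arms (adjusted p = 0.0487, edgeR). It was the only 1 of the 10 transcripts to pass the threshold (adjusted p of 0.05) in any of 12 comparisons. In that average 3.52% of all genes passed. Log2 fold changes of the other 9 transcripts lay between -0.24 (Pmch) and 0.34 (Gal). An unadjusted p under 0.05 was found for 1 of 10, beside 3559 of all 20026 genes. The median over the 10 was 0.08, beside -0.01 over all genes tested.

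Oxt measured 3.87, 2.77 and 2.33 CPM in the 3 CtrlVeh libraries and 9.58, 8.10 and 7.20 CPM in CtrlVehLPS. In exposed vehicle mice it was 4.82, 9.04, 11.9 and 3.11 CPM without LPS and 10.2, 11.4, 9.66 and 5.34 CPM with LPS. In exposed CBD mice the values were 7.58, 4.44, 1.97 and 2.13 CPM without LPS and 8.39, 6.84, 12.99 and 7.50 CPM with it. All 11 LPS libraries were above the PBS median of 3.87 CPM, and 8 of the 11 PBS libraries were below every LPS library. The PBS libraries that reached the LPS range were GWVeh replicates 2 and 3 and GWCBD30 replicate 1.

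In control mice the Oxt means were 2.99 ± 0.795 CPM (SD, n = 3) with PBS and 8.29 ± 1.20 CPM (n = 3) with LPS, a log2 fold change of 1.4999 ± 0.53 (adjusted p = 0.250, edgeR). The 2 groups did not overlap, a separation seen in 17.3% of all genes in this comparison. In exposed CBD mice the means were 4.03 ± 2.62 and 8.93 ± 2.78 CPM (n = 4 each), a log2 fold change of 1.14 ± 0.43 (adjusted p = 0.524). In exposed vehicle mice they were 7.21 ± 3.99 and 9.16 ± 2.65 CPM (n = 4 each), a log2 fold change of 0.35 ± 0.41 (adjusted p = 0.849). None of the 10 transcripts passed in a single arm by edgeR, and 1 had an unadjusted p under 0.05 in each arm, Oxt in control and in CBD mice and Sst in exposed vehicle mice. Such a p was found for 2452 of all 20026 genes in control mice, 2081 in exposed vehicle mice and 1647 in exposed CBD mice. Of all genes, 0.494% passed in control mice, 0.939% in exposed vehicle mice and 0.00499% in exposed CBD mice. DESeq2 called the same number of the 10 as edgeR in each of the 12 comparisons.

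Hypothalamic markers varied along with Oxt. Their score was -0.98 to -0.60 in CtrlVeh and -0.03 to 0.16 in CtrlVehLPS, with no overlap, and summed levels were 7.56 to 8.54 and 12.7 to 14.3 CPM. Of all genes, 17.3% did not overlap between these groups. In the exposed arms the PBS and LPS scores overlapped. The score was -0.59 to 0.71 in GWVeh, -0.36 to 0.18 in GWVehLPS, -1.07 to -0.01 in GWCBD30 and -0.58 to 0.44 in GWCBD30LPS. None of the 10 tested markers passed in the average over arms, and 3 had an unadjusted p under 0.05, beside 3559 of all 20026 genes. The median log2 fold change of the markers was 0.42, with 9 of 10 positive. Gpr50, a receptor gene of the dorsomedial hypothalamus and tanycytes, had the smallest p, at 0.70 (adjusted p = 0.118). With this score as a covariate, a fit in which 1.69% of all genes passed, the average LPS difference of Oxt was 0.63 ± 0.16 (adjusted p = 0.0438, edgeR). In the same fit, with 1 slope of the score for all groups, the Oxt difference in control mice was 0.44 ± 0.34 (adjusted p = 0.915, edgeR). Because the scores of CtrlVeh and CtrlVehLPS did not overlap, this value depends on that common slope.

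Olfactory bulb markers differed with LPS in control mice, where their score was 0.01 to 0.14 in CtrlVeh and 1.87 to 3.14 in CtrlVehLPS. The exposed arms overlapped, with 0.13 to 0.43 in GWVeh, -0.24 to 2.18 in GWVehLPS, 0.33 to 0.81 in GWCBD30 and -0.18 to 1.74 in GWCBD30LPS. With the bulb and cerebellar scores as covariates, an alternative added after the data were seen, Oxt stood at 0.92 ± 0.35 (adjusted p = 0.234). The Oxt call was also lost without the low-count filter (1.004, adjusted p = 0.0599) and when any 1 of 18 libraries was left out. It held without GWVeh replicate 3, GWVehLPS replicate 4, GWCBD30 replicate 1 or GWCBD30LPS replicate 2, and over all 22 omissions the difference ran from 0.91 to 1.17 with a highest adjusted p of 0.106. The hypothalamic and bulb scores are RNA levels that did not overlap between CtrlVeh and CtrlVehLPS. Fits with them as covariates therefore cannot separate tissue makeup from an LPS response. The part of tissue makeup in the Oxt difference was not tested.

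Avp did not follow Oxt in the LPS comparison. It measured 12.1, 8.90 and 9.66 CPM in CtrlVeh and 12.4, 8.38 and 9.95 CPM in CtrlVehLPS. The exposed vehicle libraries had 15.1, 16.9, 19.7 and 10.0 CPM without LPS and 15.7, 16.7, 10.7 and 12.4 CPM with it. CBD mice had 15.8, 17.1, 8.26 and 7.64 CPM without LPS and 11.4, 8.01, 19.6 and 11.2 CPM with LPS. PBS and LPS groups overlapped in every arm, and the average LPS log2 fold change of Avp was -0.03 ± 0.18 (adjusted p = 0.964, edgeR). With the hypothalamic score as a covariate it was -0.30 ± 0.13 (adjusted p = 0.312). A test of Oxt against Avp within libraries was not run.

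**Figure D2:**
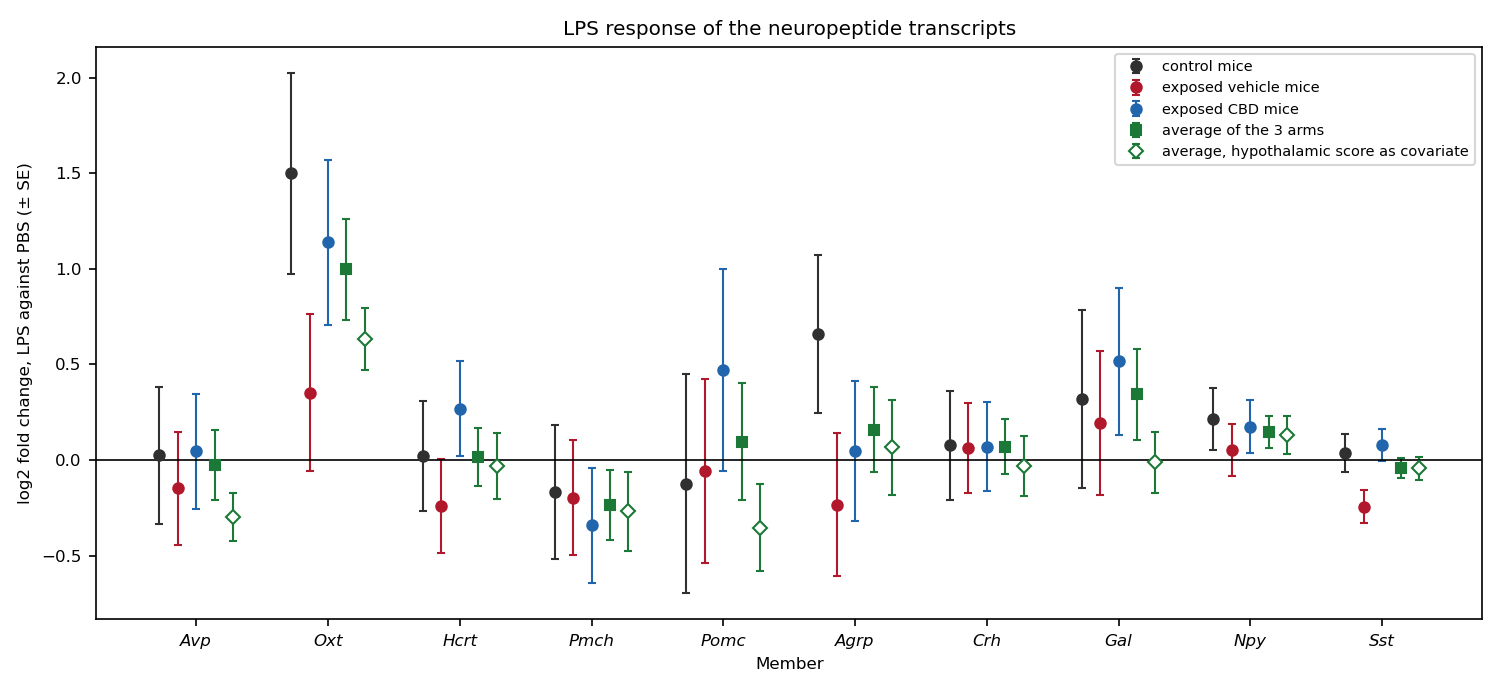
Log2 fold change of LPS against PBS (vertical axis, points with SE) for each transcript in control, exposed vehicle and exposed CBD mice, in the average of the 3 arms, and in that average with the hypothalamic marker score as a covariate. The Oxt average stands at 0.997, and at 0.63 with the covariate, while the averages of the other 9 transcripts lie between -0.24 and 0.34.

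Crh, the hypothalamic trigger of the stress axis, is at chr3:19693401-19695396. It ranged from 2.48 CPM (CtrlVehLPS replicate 1) to 5.85 CPM (CtrlVehLPS replicate 3), so a single group spanned its whole range. Its average LPS log2 fold change was 0.07 ± 0.15 (adjusted p = 0.854). The lateral hypothalamic peptides did not pass either. Hcrt (chr11:100761069-100762931), the orexin precursor of the arousal system, ranged from 2.31 to 6.34 CPM and had a difference of 0.02 ± 0.15 (adjusted p = 0.974, edgeR). Pmch (chr10:88091072-88092375), precursor of melanin-concentrating hormone, ranged from 2.32 to 8.49 CPM with a difference of -0.24 ± 0.18 (adjusted p = 0.547, edgeR). This was the lowest average of the 10, and 2 of 11 LPS libraries were above the PBS median of 6.55 CPM. Of the exonic bases of Pmch, 58.1% overlap exons of Parpbp on the opposite strand, so its counts are uncertain without a known strand setting.

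The arcuate peptides differed in which library stood out. Agrp (chr8:105566698-105637393) encodes the orexigenic antagonist of melanocortin receptors, and 11.3% of its exonic bases are shared with Ctcf on the opposite strand and with the noncoding gene Gm5914 on its own. It measured 0.80, 0.78 and 1.13 CPM in CtrlVeh and 2.22, 1.29 and 0.70 CPM in CtrlVehLPS. The highest of these values, 60 reads, was in CtrlVehLPS replicate 1, the library low in cerebellar transcripts. The control LPS difference of Agrp was 0.66 ± 0.41 (adjusted p = 0.547, edgeR), and it was 0.14 without that library.

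Pomc (chr12:3954951-3960642), precursor of the melanocortins, beta-endorphin and corticotropin, measured 1.48, 4.70 and 1.01 CPM in CtrlVeh and 3.07, 1.29 and 2.11 CPM in CtrlVehLPS. Exposed vehicle mice had 2.39, 3.62, 3.48 and 1.14 CPM without LPS and 2.10, 3.82, 2.76 and 1.44 CPM with it. The CtrlVeh library at 4.70 CPM, replicate 2, was the highest of all 22. It also held 43 reads of the pituitary gene Gh (1.98 CPM, against at most 0.506 CPM elsewhere) and 7 reads of Prl (at most 2 elsewhere). Pomc is also made in pituitary corticotrophs and melanotrophs. Among 12 pituitary genes Prl and Cga were at 0 in 18 libraries each, Fshb in 21 and Pou1f1 in 17. Tshb (0.787 to 3.03 CPM) and Pax7 (0.709 to 2.89 CPM) were detected in every library. CtrlVeh replicate 2 had 3 reads of Cga and 0 of Tbx19, which was at 0 in 10 libraries. The library with 0.506 CPM of Gh, GWCBD30 replicate 4, had the lowest Pomc level (0.506 CPM). The part of pituitary RNA in the Pomc values was not tested. The control LPS difference of Pomc was -0.12 ± 0.57 (adjusted p = 0.955), and 0.84 without CtrlVeh replicate 2.

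Gal (chr19:3409915-3414544) encodes galanin. It measured 1.94, 2.26 and 2.17 CPM in CtrlVeh and 3.14, 2.36 and 2.40 CPM in CtrlVehLPS. These groups did not overlap, a separation seen in 17.3% of all genes, and the log2 fold change was 0.32 ± 0.46 (adjusted p = 0.830, edgeR). In exposed vehicle mice it was 2.34, 4.52, 3.52 and 1.75 CPM without LPS and 3.64, 5.43, 2.48 and 2.13 CPM with LPS. In exposed CBD mice it was 4.00, 3.42, 1.33 and 1.01 CPM without LPS and 3.84, 2.93, 5.04 and 2.11 CPM with LPS, with a difference of 0.52 ± 0.38 (adjusted p = 0.758). Groups overlapped in both exposed arms. With the hypothalamic score as a covariate, the average LPS difference of Gal went from 0.34 to -0.01.

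Sst and Npy mark interneurons. Sst (chr16:23889573-23890958) measured 98.3, 94.9, 108.7 and 104.9 CPM in GWVeh and 76.6, 101.1, 82.2 and 83.8 CPM in GWVehLPS. In these exposed vehicle mice the LPS difference was -0.24 ± 0.09 (adjusted p = 0.221, edgeR), and 3 of the 4 LPS libraries lay below every PBS library. GWVehLPS replicate 2, at 101.1 CPM, was the exception, and without it the difference was -0.33 (adjusted p = 0.0453, edgeR). Over all 8 omissions of a single library the difference ran from -0.33 to -0.19. In 7 of the 8 it did not pass, with a highest adjusted p of 0.482. The LPS difference of Sst was 0.04 ± 0.10 in control mice and 0.08 ± 0.09 in CBD mice. Npy (chr6:49822710-49829507) ranged from 21.7 to 30.4 CPM in 21 libraries and reached 41.3 CPM in CtrlVehLPS replicate 1. Its average LPS difference was 0.15 ± 0.08 (adjusted p = 0.378), and its control difference of 0.21 became -0.10 without that library.

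Exposure was compared with control in vehicle mice, with and without LPS. None of the 10 transcripts passed the threshold in either state by edgeR, and 1 had an unadjusted p under 0.05 in each (Oxt without LPS, Agrp under LPS). Such a p was found for 1762 of all 20026 genes without LPS and for 1548 under LPS. Of all genes, 0% passed without LPS and 0.00499% under LPS. Without LPS, the exposed minus control difference of Oxt was 1.29 ± 0.50 (adjusted p = 0.504), and the next smallest p were those of Avp at 0.60 ± 0.33 (adjusted p = 0.622) and Sst at 0.12 ± 0.09 (adjusted p = 0.740). Both high Oxt values in GWVeh, 9.04 and 11.9 CPM, came from replicates 2 and 3, which also had the highest hypothalamic scores of all libraries, 0.71 and 0.52. With that score as a covariate, the Oxt difference was 0.10 ± 0.34 and the Avp difference -0.10 ± 0.24.

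Under LPS the transcript with the smallest p was Agrp, with a difference of -0.90 ± 0.39 (adjusted p = 0.579). It measured 1.26, 0.63, 0.55 and 0.59 CPM in GWVehLPS, and the difference was -0.37 without CtrlVehLPS replicate 1. Sst was at -0.17 ± 0.09 (adjusted p = 0.709), and at -0.03 without the same library. Avp was at 0.43 ± 0.33 (adjusted p = 0.826). Averaged over both states, where 0.03% of all genes passed, Avp stood at 0.52 ± 0.23 (adjusted p = 0.637), Oxt at 0.72 ± 0.34 (adjusted p = 0.640) and Agrp at -0.45 ± 0.28 (adjusted p = 0.687). None of the 10 passed there by edgeR, and 2 had an unadjusted p under 0.05, beside 1555 of all 20026 genes. The Agrp value was -0.19 without CtrlVehLPS replicate 1. With the hypothalamic score as a covariate, Avp stood at 0.21 and Oxt at 0.18.

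CBD was compared with vehicle in exposed mice. None of the 10 transcripts passed by edgeR without LPS (0 had an unadjusted p under 0.05), under LPS (1 had) or averaged over both (1 had). The shares of all genes that passed were 0%, 0.24% and 0%. An unadjusted p under 0.05 was found for 1288, 1422 and 1673 of all 20026 genes, respectively. Pomc had the smallest p in the average, with a log2 fold change of -0.82 ± 0.36 in CBD mice (adjusted p = 0.567). The GWCBD30 libraries had 1.64, 1.48, 1.33 and 0.51 CPM of Pomc and the GWCBD30LPS libraries 1.33, 1.12, 3.17 and 1.22 CPM. Except for GWCBD30LPS replicate 3 at 3.17 CPM, all CBD libraries were at or below 1.64 CPM, and so were GWVeh replicate 4 and GWVehLPS replicate 4. The Pomc difference was -1.08 ± 0.52 without LPS (adjusted p = 0.752) and -0.55 ± 0.49 under LPS (adjusted p = 0.906). Under LPS it was -0.28 without GWVehLPS replicate 2 and -1.04 without GWCBD30LPS replicate 3. With the hypothalamic score as a covariate, the average was -0.50 ± 0.25.

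By p, Oxt was next without LPS, at -0.82 ± 0.44 in CBD mice (adjusted p = 0.765), and at -0.24 with the hypothalamic score as a covariate. Hcrt was at -0.35 ± 0.25 (adjusted p = 0.804). Under LPS, the CBD minus vehicle difference of Sst was 0.21 ± 0.09 (adjusted p = 0.574): GWCBD30LPS libraries had 93.8, 92.2, 104.5 and 106.2 CPM, above 3 of the 4 GWVehLPS libraries. Agrp under LPS was at 0.32 ± 0.37 (adjusted p = 0.943), and at 0.70 without GWVehLPS replicate 1. In the average over both states Oxt was at -0.43 ± 0.30 (adjusted p = 0.740) and Avp at -0.24 ± 0.21 (adjusted p = 0.805).

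The LPS responses of the arms were compared as interactions. For exposure by LPS, 0% of all genes passed, and none of the 10 transcripts did by edgeR. An unadjusted p under 0.05 was found for 1 of the 10, beside 1688 of all 20026 genes. The LPS response in exposed vehicle mice minus that in controls was -0.28 ± 0.13 for Sst (adjusted p = 0.573), -1.15 ± 0.67 for Oxt (adjusted p = 0.678) and -0.89 ± 0.56 for Agrp (adjusted p = 0.697). The Sst value was -0.14, and the Agrp value -0.37, without CtrlVehLPS replicate 1. The Oxt value was 0.15 ± 0.43 with the hypothalamic score as a covariate. For CBD by LPS, 0.0449% of all genes passed and none of the 10, with 1 at an unadjusted p under 0.05, beside 1140 of all 20026 genes. The LPS response in CBD mice minus that in exposed vehicle mice was 0.32 ± 0.12 for Sst (adjusted p = 0.732), 0.51 ± 0.35 for Hcrt (adjusted p = 0.925) and 0.79 ± 0.60 for Oxt (adjusted p = 0.930). The LPS difference of Oxt was thus not shown to differ between arms. The comparisons share groups (GWVeh and GWVehLPS enter several), so their values are not independent of each other.

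The transcripts fell into sets that moved together from mouse to mouse. After subtraction of group means over the 22 libraries, Oxt and Gal had a Pearson r of 0.84 (Spearman rho 0.84), Avp and Gal 0.82 (0.84) and Avp and Oxt 0.82 (0.82). Pomc joined them, with r of 0.68 to Gal, 0.64 to Oxt and 0.61 to Avp. Npy and Sst formed another pair, with r of 0.79 (rho 0.83). Of the 45 pairs, the most negative was Agrp and Crh, at -0.47. These values are descriptions: the transcripts of a pair come from the same libraries and share their depth and tissue composition.

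**Figure D3:**
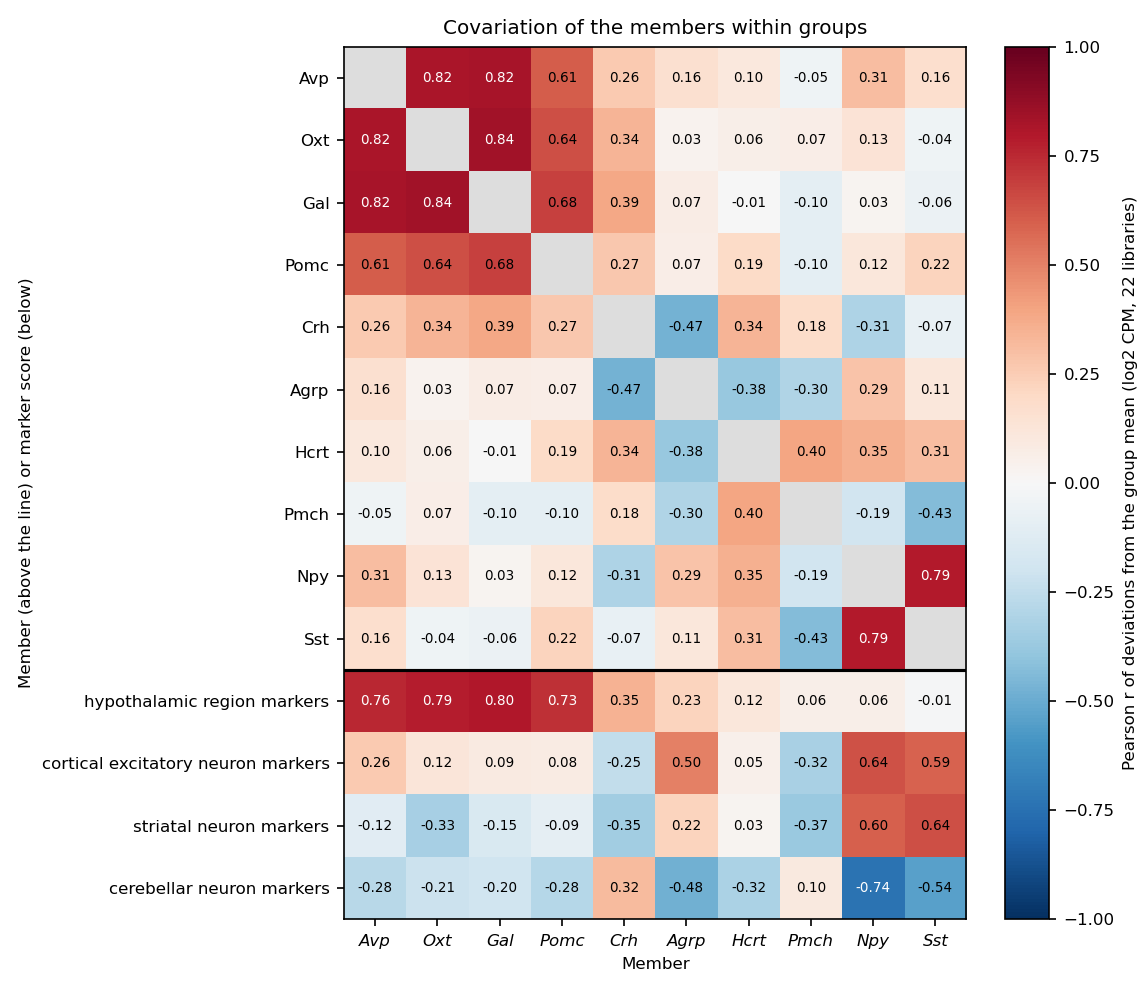
Pearson r between deviations from the group mean (log2 CPM, 22 libraries) for each pair of transcripts, above the line, and between each transcript and 4 regional marker scores, below it. Avp, Oxt, Gal and Pomc form a block at 0.61 to 0.84 that also follows the hypothalamic score at 0.73 to 0.80, and Npy and Sst form a pair at 0.79.

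Oxt, Avp, Gal and Pomc also followed the hypothalamic markers, none of which is a peptide gene. Within groups, r with the hypothalamic score was 0.80 for Gal, 0.79 for Oxt, 0.76 for Avp and 0.73 for Pomc. Without subtraction of group means it was 0.81 for Oxt (rho 0.88) and, without the 2 libraries farthest from the median score, 0.78. In the same way it went from 0.77 to 0.69 for Gal, from 0.69 to 0.71 for Avp and from 0.63 to 0.53 for Pomc. The other hypothalamic peptides followed less closely or not at all, with within-group r of 0.35 for Crh, 0.23 for Agrp, 0.12 for Hcrt and 0.06 for Pmch. With the pan-brain marker score, within-group r was 0.64 for Crh, 0.63 for Gal, 0.51 for Oxt, 0.44 for Avp and 0.38 for Pomc. It was -0.07 for Agrp, -0.25 for Hcrt and -0.33 for Pmch. In the fit with the score as a covariate, each unit of score (a doubling of the markers on average) went with a log2 increase of 1.24 ± 0.21 for Oxt, 1.35 ± 0.30 for Pomc, 1.19 ± 0.21 for Gal and 0.80 ± 0.16 for Avp. The slope was 0.13 ± 0.21 for Hcrt, 0.10 ± 0.26 for Pmch, 0.28 ± 0.33 for Agrp and 0.31 ± 0.19 for Crh.

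**Figure D4:**
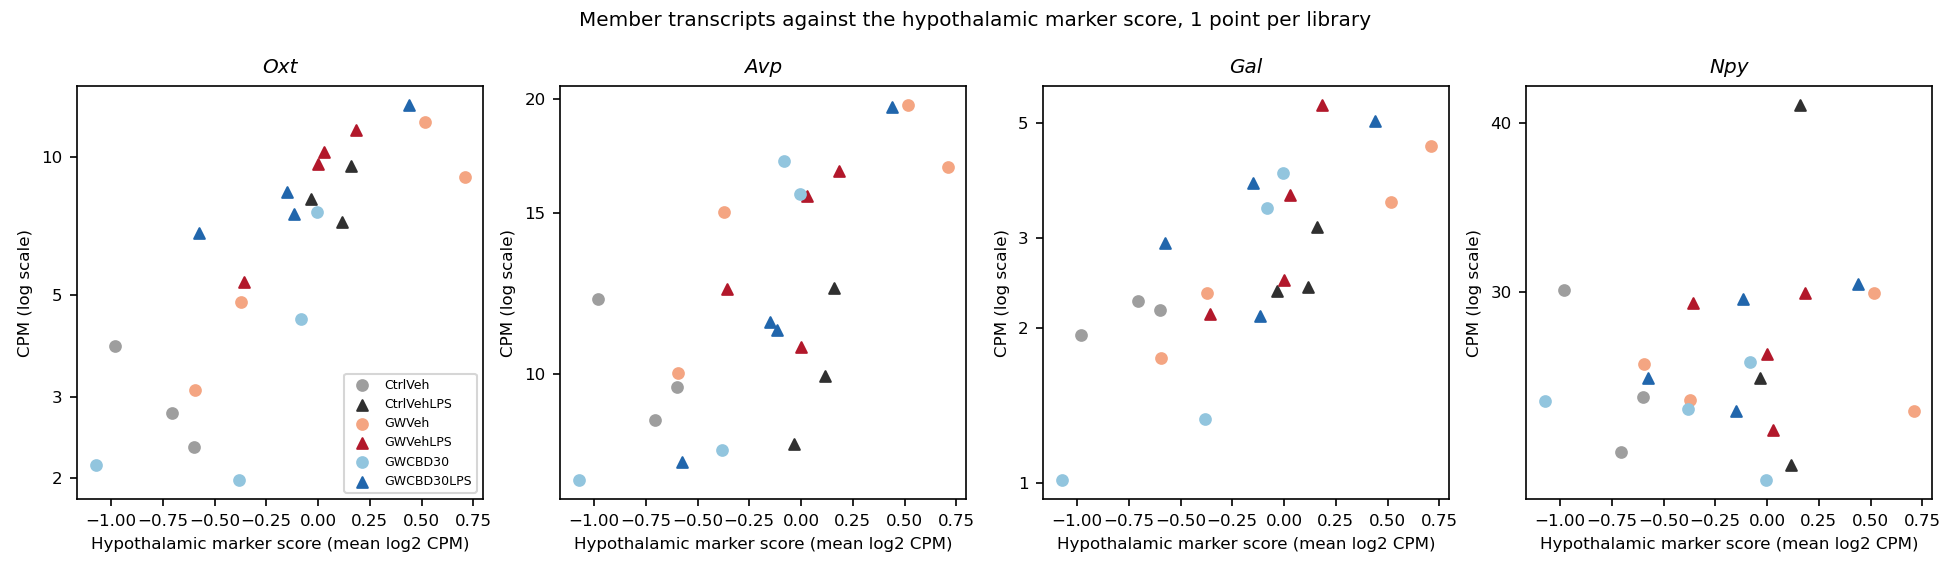
Level of Oxt, Avp, Gal and Npy (vertical axis, CPM on a log scale) against the hypothalamic marker score (horizontal axis, mean log2 CPM of 10 genes), with 1 point per library, circles for PBS and triangles for LPS. Oxt, Avp and Gal increase along the score and Npy does not (within-group r of 0.79, 0.76, 0.80 and 0.06).

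Npy and Sst had r of 0.06 and -0.01 with the hypothalamic score. They followed cortical markers (0.64 and 0.59 within groups) and striatal markers (0.60 and 0.64), and ran against cerebellar markers (-0.74 and -0.54). The cerebellar relation of Npy rested on few libraries: r without subtraction of group means was -0.69, and 0.14 without the 2 libraries farthest from the median score. In the same way, r of Npy went from 0.52 to 0.27 with the cortical score and from 0.59 to 0.42 with the striatal score. For Sst it went from 0.64 to 0.48, from 0.67 to 0.52 and, with the cerebellar score, from -0.43 to -0.14.

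Genes with the most alike pattern were sought among 16163 genes over all 22 libraries. For Oxt they were Irs4 (r = 0.91), an insulin receptor substrate abundant in the hypothalamus, Vat1 (0.86) and Trh (0.86), the thyrotropin-releasing hormone precursor. Irs4 ran from 3.24 to 16.8 CPM, and its own average LPS difference was 0.45 ± 0.22 (adjusted p = 0.291, edgeR). For Gal they were Arhgap36 (0.86), Vat1 (0.83) and Magel2 (0.82), an imprinted gene of the Prader-Willi region. Magel2 was also among the 3 of Pomc (0.71), after Galnt16 (0.73) and R3hcc1l (0.72). Avp had mt-Atp8 (0.78) and Gal (0.76).

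Sst was most like Cck (0.83), the cholecystokinin precursor, Ndrg4 (0.82) and Pde1b (0.82). Npy was most like Mras (0.87), Bbln (0.83) and Insyn2a (0.79), and these were 0.71, 0.63 and 0.58 without the 2 libraries farthest from the median. Crh had Tuba1c (0.82), Lgals1 (0.78) and Car5b (0.72). Hcrt had C330011M18Rik (0.72), Ang (0.70) and Nutf2-ps1 (0.65), Pmch had Nfrkb (0.77), Gm37008 (0.76) and Cntrl (0.75), and Agrp had Gm17753 (0.73), Kctd1 (0.72) and Tbr1 (0.72). Without the 2 farthest libraries, r was 0.46, 0.52 and 0.49 for the genes of Pmch, 0.61, 0.58 and 0.40 for those of Hcrt and 0.62, 0.50 and 0.48 for those of Agrp.

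The rest of the peptide system was followed through 5 lists. Of 20 other hypothalamic peptide genes, 14 were tested and 2 were higher with LPS in the average over arms, with a list median of 0.11 beside -0.01 over all genes, of which 3.52% passed. Trh rose by 0.57 ± 0.10 (adjusted p = 0.000996, edgeR) and Cartpt, the precursor of an appetite-reducing peptide, by 0.82 ± 0.17 (adjusted p = 0.0101). Trh measured 5.18, 6.22 and 5.20 CPM in CtrlVeh and 13.5, 11.03 and 12.2 CPM in CtrlVehLPS, with no overlap, as was seen in 17.3% of all genes. In control mice alone Trh rose by 1.15 ± 0.20 (adjusted p = 0.00396), and the difference was 0.02 ± 0.17 in exposed vehicle mice and 0.55 ± 0.17 (adjusted p = 0.394) in CBD mice. With the hypothalamic score as a covariate the averages were 0.42 for Trh (adjusted p = 0.00977) and 0.65 for Cartpt (adjusted p = 0.0337). Both averages stayed past the threshold when any 1 of the 22 libraries was left out. With the bulb and cerebellar scores as covariates neither passed, at 0.42 for Trh (adjusted p = 0.0722) and 0.89 for Cartpt (adjusted p = 0.0572). Trh is also expressed in the olfactory bulb. The Trh call in control mice was lost without CtrlVeh replicate 3 (1.10, adjusted p = 0.0512), with the hypothalamic covariate (0.75, adjusted p = 0.168) and with the bulb and cerebellar covariates (0.75, adjusted p = 0.376).

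Of 15 genes for peptide processing and dense-core granules, 2 were higher with LPS in the average and 0 lower (list median 0.02). In that average 3.52% of all genes passed. The 2 were the granule proteins Scg3 (0.16 ± 0.03, adjusted p = 0.00497) and Chga (0.17 ± 0.05, adjusted p = 0.0302). Scg3 also passed with the hypothalamic covariate (adjusted p = 0.0330) and with the bulb and cerebellar covariates (adjusted p = 0.0389). In control mice Cadps2, a priming factor for granule release that is abundant in cerebellum, fell by 0.29 (adjusted p = 0.0468), in a comparison where CtrlVehLPS replicate 1 was low in cerebellar transcripts. The Cadps2 call was lost in 5 of 6 omissions of a single control library (-0.21, adjusted p = 0.248, without CtrlVehLPS replicate 1). It was also lost when only those groups were fitted (adjusted p = 0.178), with the hypothalamic covariate (adjusted p = 0.545) and with the bulb and cerebellar covariates (adjusted p = 0.632). Receptors of the 10 peptides showed no call: 0 of 21 tested passed, with a median of 0.03. An unadjusted p under 0.05 in the average was found for 1 receptor, beside 3559 of all 20026 genes. Sstr1, a somatostatin receptor, had the smallest p of the receptors, at -0.15 ± 0.07 (adjusted p = 0.235). The oxytocin receptor Oxtr was detected at 6.75 to 11.5 CPM and the vasopressin receptor Avpr1a at 0.349 to 1.49 CPM, whereas Avpr1b and Avpr2 were too low to be tested.

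Among 16 inhibitory interneuron genes 2 were higher with LPS in the average (list median 0.02), where 3.52% of all genes passed. The 2 were Lamp5, a marker of neurogliaform cells (0.19 ± 0.05, adjusted p = 0.0217), and the calretinin gene Calb2 (0.22 ± 0.06, adjusted p = 0.0321). Calretinin is also abundant in the olfactory bulb. Among 8 feeding hormone receptor and leptin signalling genes, Stat3, the transcription factor downstream of the leptin and interleukin-6 receptors, was higher by 0.16 ± 0.05 (adjusted p = 0.0390; list median 0.05). The calls of Chga, Calb2, Lamp5 and Stat3 were lost when 1 of 9, 8, 1 and 11 libraries, respectively, was left out. With the hypothalamic covariate none of these 4 genes passed, with adjusted p of 0.270 for Chga, 0.193 for Calb2, 0.130 for Lamp5 and 0.294 for Stat3. With the bulb and cerebellar covariates Stat3 passed (adjusted p = 0.0279), and Chga (0.0744), Calb2 (0.0872) and Lamp5 (0.0574) did not. Of the tissue marker lists, 4 of 9 olfactory bulb genes rose in the average (Omp, Shisa3, Scgn and Eomes), as did 2 of 9 pan-brain genes, the microglial Csf1r and Cx3cr1. None of 9 cerebellar, 7 striatal, 7 cortical, 6 choroid plexus and 3 tested pituitary genes passed, with 0, 2, 0, 2 and 0 of them at an unadjusted p under 0.05. Such a p was found for 3559 of all 20026 genes in the average. In the 3 exposure comparisons (without LPS, under LPS and averaged), the 3 CBD comparisons and both interactions, none of the genes of the 5 peptide lists passed.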

How the data were processed

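The deposited values are raw counts for 22 libraries, whole numbers that the authors had not normalized, and 0 columns belonged to other samples. Per the labels, libraries were stranded, selected for poly(A) and read as pairs of 150 bp from RNA of integrity 8.5 or more. Per the submitters' processing notes, the build was GRCm38 (mm10). Which aligner, counter, strand setting and annotation were used is not given in the sources used here. No molecular identifiers are mentioned, so intervals and detection limits cover counting error only.

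The fit used edgeR 4.0.16 under R 4.3.3 (filterByExpr, TMM scaling, robust quasi-likelihood, 6 group means, 16 residual degrees of freedom, common biological coefficient of variation 0.103). Tests were two-sided, adjusted by Benjamini-Hochberg over 20026 genes, and past the threshold at an adjusted p of 0.05. A standard error is the log2 fold change divided by the square root of F. CPM use TMM-scaled library sizes, and scores use a prior count of 2. The fit was tested on simulated data. All 10 identifiers were found in GENCODE M21. Libraries of 1 group differed by more than sampling noise (chi-square per gene 3.85 to 20.3), so each counted as 1 mouse.

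The 10 transcripts and 13 gene lists were chosen with earlier results of these data known. All 10 are named; fold changes are printed for those past the threshold or else for the 3 with the smallest p, and for others where a table or a sentence on that gene needs them. Up to 4 genes past the threshold, or the 1 with the smallest p, are named per list, and the 3 genes most alike each transcript; some items are not reported here. Oxtr and Avpr1a, Gh and Prl, and values by library were added after they were seen. Alternatives were RLE scaling, no filter, DESeq2 1.42.0, only the groups of a comparison, a replicate block, marker score covariates and leaving out each library.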

Additional observations from a re-analysis of the deposited data

Results flagged for a closer look

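In groups of 4 mice, each transcript was checked for a library far from the other 3, over 40 groups, a check that chance alone meets in about 1 in 20 groups. It was met 3 times. Pmch was at 8.49 CPM in GWVeh replicate 2, against 5.46 to 5.84 CPM in the other GWVeh libraries. Pomc was at 3.17 CPM in GWCBD30LPS replicate 3, against 1.12 to 1.33 CPM in the others. That library also had the highest Oxt level of all (12.99 CPM) and a hypothalamic marker score of 0.44. Agrp was at 1.26 CPM in GWVehLPS replicate 1, against 0.55 to 0.63 CPM in the others.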

How the results depend on the processing

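The count of the 10 transcripts past the threshold stayed at its value in all 12 comparisons under RLE scaling, DESeq2, the hypothalamic score covariate and the replicate block. For LPS averaged over arms it went from 1 (Oxt) to 0 without the low-count filter and with the bulb and cerebellar covariates, and was 0 to 1 when single libraries were left out. For LPS in control mice it went from 0 to 1 (Oxt, adjusted p = 0.00992) when only those 2 groups were fitted, where 57 of 18009 genes passed. For LPS in exposed vehicle mice it was 0 to 1 (Sst) over single omissions.

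With the hypothalamic score as a covariate, 35 of 120 differences of the 10 transcripts had the opposite sign, and 0 of these had passed. Among them were -0.67 for Gal (LPS in control mice), -0.10 for Avp and -1.07 for Pomc (exposure without LPS) and 0.15 for Oxt (exposure by LPS), and also -0.67 for Avp (LPS in control mice), -0.56 for Gal (exposure without LPS) and 1.04 for Gal (exposure by LPS). With the bulb and cerebellar covariates, LPS in control mice gave -0.0310 for Agrp and -0.26 for Npy, and exposure under LPS gave 0.0695 for Sst. When single libraries were left out, Pomc ran from -0.24 to 1.11 for exposure without LPS and from -0.51 to 0.84 for LPS in control mice. Npy ran from -0.10 to 0.38 for LPS in control mice. The cause was not tested.

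Replicate numbers did not pair the mice: of 25 same-numbered pairs, 7 had a correlation of deviations over 0.1 (range -0.15 to 0.30), and 6 correlated best with their own number. With the replicate block, Oxt under LPS averaged over arms was 1.02 (adjusted p = 0.0242, edgeR), and no count changed.

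Low counts limit Agrp (11 to 60 reads) and Pomc (10 to 102), and groups of 3 or 4 mice limit all single-arm comparisons. Leaving out 1 mouse of a group of 3 leaves 2, whose spread is taken from all groups.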

Other observations

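Among other genes near the peptide system, Lepr, the leptin receptor, had the smallest p of the feeding list for LPS in exposed vehicle mice, at -0.66 ± 0.18 (adjusted p = 0.0666, edgeR). For CBD under LPS in exposed mice it was at 0.46 ± 0.18 (adjusted p = 0.499). Ranges of level for rare peptide genes were low throughout: Gnrh1, the gonadotropin-releasing hormone precursor, was at 0.374 to 1.74 CPM, Ghrh was at 0 in 3 libraries and Kiss1 was at 0 in all 22.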
